A study of Homo sapiens with 9 samples.

Results

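The metallothioneins, the zinc exporter SLC30A1 and the metal-sensing transcription factor MTF1 were followed by gene symbol through RNA sequencing of HCT116, a human colorectal carcinoma cell line. Of 8 named genes, 7 had a row among the 33861 genes of the deposited table, namely MT1E, MT1F, MT1G, MT1X, MT2A, MTF1 and SLC30A1, and MT1M was not analysed here. Of these 7, 6 passed a filter on low counts and were tested with 20988 genes in all, and MT1G did not pass. The 9 libraries formed 3 groups of 3. Control cells (NC) received neither factor, activin cells received 100 ng/mL activin A for 5 days, and activin + HGF cells received the same activin treatment followed by 20 ng/mL HGF (hepatocyte growth factor) for 5 more days. HGF and the 5 further days of culture cannot be told apart in these groups, and the sources used here do not give how long control cells were kept. All groups were the same line in serum-supplemented medium. Nothing in the labels says that the libraries came from separate cultures, so p-values measure the spread between these libraries, which may be technical. Over all genes, the counts of each replicate pair differed beyond sampling noise, and 2 libraries stood apart from their groups. Activin library 2 differed from the other activin libraries with a chi-square per degree of freedom of 216 and 265, against 86.4 between those, and activin + HGF library 1 with 254 and 276, against 64.8. Control pairs had 60.6 to 76.9. For the members, results that rest on these libraries are given with and without them. The other listed genes were not refitted with a library left out.

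Metallothioneins are small cysteine-rich proteins that bind zinc and copper, and cadmium where it is present, and so hold free metal in the cell low. Their genes are induced by zinc through MTF1, which binds metal response elements in their promoters, and MT2A is also known to respond to glucocorticoids. SLC30A1 (ZnT1) carries zinc out of the cell across the plasma membrane and is itself an MTF1 target. In intestinal epithelium these genes are known for buffering absorbed zinc.

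The coding sequences of the 4 metallothionein genes that were measured above the filter are shown because they carry the metal-binding cysteines and because the genes are so alike that reads can be shared. They were read from the GENCODE 29 annotation of GRCh38, on the coding strand, with cysteine codons (TGC or TGT) in capitals.
MT2A: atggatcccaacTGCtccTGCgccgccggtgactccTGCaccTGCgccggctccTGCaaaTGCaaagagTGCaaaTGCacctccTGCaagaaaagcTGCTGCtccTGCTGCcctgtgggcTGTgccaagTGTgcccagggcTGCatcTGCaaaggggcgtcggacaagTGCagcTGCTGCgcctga
MT1E: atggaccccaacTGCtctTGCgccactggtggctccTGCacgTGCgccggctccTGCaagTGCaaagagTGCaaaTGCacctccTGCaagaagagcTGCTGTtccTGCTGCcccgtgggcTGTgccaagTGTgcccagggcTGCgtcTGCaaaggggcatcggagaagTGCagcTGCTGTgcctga
MT1X: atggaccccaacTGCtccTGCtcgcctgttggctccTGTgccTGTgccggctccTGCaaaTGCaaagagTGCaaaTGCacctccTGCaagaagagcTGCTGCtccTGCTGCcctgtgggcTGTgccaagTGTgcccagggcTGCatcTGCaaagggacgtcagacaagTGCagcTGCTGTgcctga
MT1F: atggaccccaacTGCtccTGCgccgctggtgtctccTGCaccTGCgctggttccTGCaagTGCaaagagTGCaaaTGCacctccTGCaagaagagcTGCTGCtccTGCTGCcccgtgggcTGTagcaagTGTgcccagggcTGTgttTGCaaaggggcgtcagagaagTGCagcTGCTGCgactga
Each is 186 bases in 3 coding exons and encodes 61 residues, of which 20 are cysteine. The coding sequences of MT1E, MT1F, MT1G, MT1M, MT1X and MT2A were 88.7% to 95.2% identical in pairs. Over whole transcripts, the share of 50-base stretches also found in another gene was 18.3% for MT1X, 16.5% for MT1G, 7.10% for MT1E, 3.02% for MT2A and 1.22% for MT1F. The values of MT1X and MT1G therefore carry the most uncertainty from reads that could be split among copies. SLC30A1 had no such stretch and MTF1 had 0.640%.

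The 5 metallothionein genes with a row lie on chromosome 16 between 56608584 and 56684196, a span of 75.6 kb. MT2A (ENSG00000125148) lies at 56608584 to 56609497, MT1E (ENSG00000169715) at 56625475 to 56627112, MT1F (ENSG00000198417) at 56657731 to 56660698 and MT1X (ENSG00000187193) at 56682470 to 56684196, all on the plus strand. MT1G (ENSG00000125144) lies between MT1F and MT1X, at 56666730 to 56668065 on the minus strand. SLC30A1 (ENSG00000170385, 211571568 to 211579161) and MTF1 (ENSG00000188786, 37809574 to 37859592) are on the minus strand of chromosome 1. The table names no build, and 99.9% of its positions with a shared identifier overlapped the GRCh38 position in GENCODE 29. One gene overlapped a member on the other strand, AL929472 within MTF1, with 0 to 4 counts per library.

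MT2A, the most abundant member, had 107.08, 146.99 and 105.46 FPKM (fragments scaled to library total and gene length, so a level per length) in control libraries 1, 2 and 3, 423.54, 687.82 and 507.64 with activin, and 329.47, 263.46 and 306.99 with activin + HGF. The 3 groups stood apart on this scale, with control lowest and activin highest, and activin library 2 was above all others. Group means were 119.8 ± 23.5, 539.7 ± 135 and 300.0 ± 33.6 FPKM (SD, n = 3).

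MT1E had 53.12, 63.52 and 50.57 FPKM in control cells, 78.70, 115.42 and 101.41 with activin, and 19.59, 25.76 and 28.05 with activin + HGF. Its groups did not overlap either, but its lowest group was activin + HGF rather than control. The means were 55.7 ± 6.86, 98.5 ± 18.5 and 24.5 ± 4.38 FPKM (SD, n = 3).

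MT1X had 5.02, 4.51 and 4.09 FPKM in control cells, 6.89, 9.65 and 9.87 with activin, and 12.63, 8.57 and 11.99 with activin + HGF (means 4.54 ± 0.466, 8.80 ± 1.66 and 11.1 ± 2.18, SD, n = 3). Both treated groups lay above control and overlapped each other. MT1F had 0.64, 0.90 and 1.01 FPKM in control cells, 2.46, 3.83 and 2.10 with activin, and 4.02, 2.93 and 3.13 with activin + HGF (means 0.85 ± 0.19, 2.80 ± 0.913 and 3.36 ± 0.580, SD, n = 3). It showed the same arrangement at a lower level, on 80 to 621 counts per library. MT1G had 0 counts in 8 of the 9 libraries and 5 counts (0.06 FPKM) in activin + HGF library 3. A count of 0 allows up to 3 counts, or 0.0373 to 0.0551 CPM (counts scaled to a common library size) depending on the library, so no difference in MT1G was detectable at this depth.

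SLC30A1, the exporter, had 4.23, 3.43 and 3.76 FPKM in control cells, 6.36, 5.27 and 5.47 with activin, and 20.38, 10.00 and 8.50 with activin + HGF. Every activin + HGF library was above every activin library and every activin library above every control library. Activin + HGF library 1 stood far above the other libraries of its group, whose SD was wide (means 3.81 ± 0.402, 5.70 ± 0.580 and 13.0 ± 6.47, n = 3). MTF1, which senses zinc and activates both kinds of gene, had 4.65, 4.05 and 4.45 FPKM in control cells, 7.31, 4.99 and 6.60 with activin, and 3.14, 4.48 and 3.85 with activin + HGF (means 4.38 ± 0.306, 6.30 ± 1.19 and 3.82 ± 0.670, SD, n = 3). Its activin libraries were above all others, and control and activin + HGF overlapped. Across members the levels per length ran, in control and in activin cells, from MT2A through MT1E, MT1X, MTF1 and SLC30A1 to MT1F and MT1G, and the ranges of MT1X and MTF1, and of MTF1 and SLC30A1, overlapped. In activin + HGF cells SLC30A1 came next after MT1E, and the ranges of MT1E and SLC30A1, of SLC30A1 and MT1X, and of MTF1 and MT1F overlapped.

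**Figure D1:**
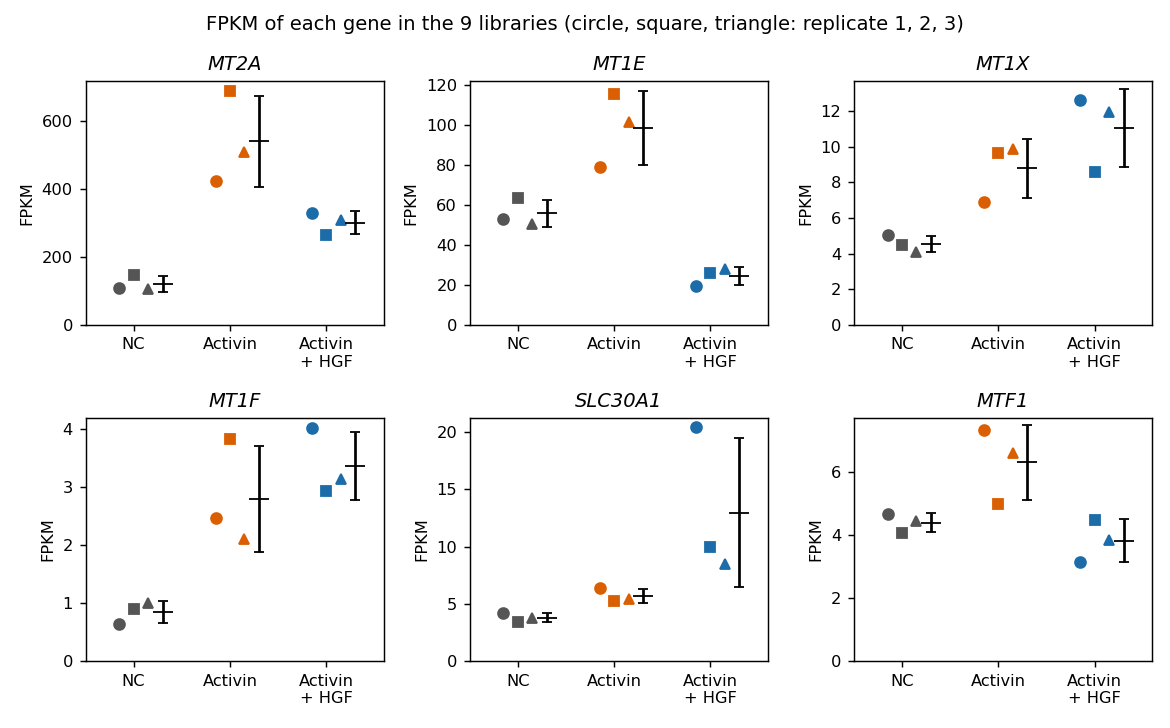
FPKM (vertical axes, starting at 0) of 6 genes in the 9 libraries by group. Symbols are replicates 1, 2 and 3 and black bars are the mean ± SD of 3 libraries. MT2A and MT1E peak in activin cells (means 539.7 and 98.5), SLC30A1 is highest in activin + HGF cells with library 1 at 20.38, and MT1E is lowest there (mean 24.5).

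The first comparison asks what activin alone did to these genes. Activin cells had more RNA of all 4 metallothioneins above the filter than control cells, 4.32-fold for MT2A, 3.16-fold for MT1F, 1.85-fold for MT1X and 1.69-fold for MT1E (fold change of the edgeR fit). By the quasi-likelihood test of edgeR with adjustment after Benjamini and Hochberg, these 4 of 6 rose and none fell, and 18% of all genes tested passed, 9.58% higher and 8.41% lower. At least a 2-fold change was also met by 2 of the 6, against 11.4% of all genes. MT2A had a log2 fold change of 2.11 ± 0.274 (SE, adjusted p = 0.000747 from edgeR) and MT1F of 1.66 ± 0.355 (adjusted p = 0.00966 from edgeR). MT1X (0.89 ± 0.257, adjusted p = 0.0374 from edgeR) and MT1E (0.76 ± 0.215, adjusted p = 0.0346 from edgeR) were closer to the threshold of 0.05. SLC30A1 had 0.50 ± 0.332 (adjusted p = 0.345 from edgeR) and MTF1 0.43 ± 0.161 (adjusted p = 0.0906 from edgeR), and neither passed.

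In normalised counts (CPM on the library size scaled by the TMM method), the control and activin libraries overlapped for none of the 6 genes, as was so for 42.2% of all genes tested. The median log2 fold change of the 6 was 0.82, against 0.02 over all genes. Without activin library 2, which stood apart, MT2A had 1.80 ± 0.216 (adjusted p = 0.00115 from edgeR) and MT1F 1.26 ± 0.302 (adjusted p = 0.0219), while MT1E (0.54, adjusted p = 0.0697) and MT1X (0.73, adjusted p = 0.0876) did not pass. The adjusted p of MT1E was between 0.0528 and 0.138 without control library 1 or 3, activin library 2 or 3, or activin + HGF library 2. That of MT1X was between 0.0552 and 0.138 without any 1 control library, activin library 2 or 3, or activin + HGF library 3, and 0.0672 with the replicate number as a block. SLC30A1 passed with about the same change when only these 2 groups were fitted (0.51, adjusted p = 0.0488 from edgeR) or without activin + HGF library 1 (0.50, adjusted p = 0.0349), and MTF1 without activin library 2 (0.51, adjusted p = 0.0307). Among all genes that passed, 53.2% were higher with TMM scaling and 63.5% with library totals.

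The second comparison, activin + HGF against activin, asks what the HGF step added. The members parted here. MT1E fell 3.16-fold, from 110.6 to 35.1 CPM, and SLC30A1 rose 3.06-fold, from 35.4 to 108 CPM. In edgeR's test, MT1E had a log2 fold change of -1.66 ± 0.22 (SE, adjusted p = 0.00408) and SLC30A1 of 1.61 ± 0.338 (adjusted p = 0.0156), and 12.9% of all genes tested passed, 7.41% higher and 5.45% lower. Both also met a 2-fold change, against 8.09% of all genes. The other 4 did not pass, with MT1X at 0.71 ± 0.255 (adjusted p = 0.0905 from edgeR), MT1F at 0.63 ± 0.344 (adjusted p = 0.247), MTF1 at -0.34 ± 0.16 (adjusted p = 0.183) and MT2A at -0.48 ± 0.263 (adjusted p = 0.248).

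The groups did not overlap in CPM for MT1E, SLC30A1 and MTF1, 3 of the 6, against 32.7% of all genes tested. MT2A overlapped in CPM, with 385 to 735 in activin and 309 to 460 in activin + HGF libraries, though not in FPKM. The members' median log2 fold change was 0.14, and that of all genes was -0.04. Scaling mattered most in this comparison. With library totals in place of TMM factors, the median of all genes moved to -0.38 and the share of passing genes that were higher moved from 57.6% to 22.3%. MT1E (-1.98) and SLC30A1 (1.22, adjusted p = 0.0271 from edgeR) kept their directions and still passed under library totals, and MT2A (-0.81, adjusted p = 0.0305) and MTF1 (-0.69, adjusted p = 0.0441) then passed as lower. Without activin library 2, MT1E had -1.44 ± 0.176 (adjusted p = 0.0023 from edgeR), SLC30A1 1.63 (adjusted p = 0.0255) and MT2A -0.17 ± 0.217 (adjusted p = 0.633). Without activin + HGF library 1, MT1E had -1.58 ± 0.247 (adjusted p = 0.0118 from edgeR).

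SLC30A1 rested partly on activin + HGF library 1, which had 183 CPM against 75.6 and 66.0 in the other libraries of its group. Without it the log2 fold change was 1.01 ± 0.156 (adjusted p = 0.0117 from edgeR), smaller but with a narrower error. Without activin library 1 or 3 the adjusted p was 0.0662 or 0.0716, and with only these 2 groups it was 0.0538. The same library 1 was also the highest of its group for genes induced quickly by growth factors, with 123.37 FPKM of DUSP1 against 33.92 and 36.37, and 158.82 FPKM of JUN against 84.99 and 79.60. Their part in the SLC30A1 value was not tested.

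Across both steps, activin + HGF cells differed from control cells in 5 of the 6 genes. MT1F was 4.90-fold, SLC30A1 4.34-fold, MT2A 3.10-fold and MT1X 3.03-fold higher, and MT1E was 1.87-fold lower (fold change of the edgeR fit). In edgeR's test the log2 fold changes were 2.29 ± 0.361 for MT1F (SE, adjusted p = 0.00119), 2.12 ± 0.344 for SLC30A1 (adjusted p = 0.00141), 1.63 ± 0.269 for MT2A (adjusted p = 0.00153) and 1.60 ± 0.26 for MT1X (adjusted p = 0.00143). MT1E had -0.90 ± 0.216 (adjusted p = 0.0103 from edgeR). Of all genes tested, 31.4% passed in this comparison, 16.4% higher and 15% lower, and 4 of the 6 genes met a 2-fold change, against 21.5% of all.

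MTF1 had 0.09 ± 0.16 (adjusted p = 0.704 from edgeR), and its sign depended on scaling, at -0.17 with library totals. The 5 genes that passed were also those whose groups did not overlap, against 53.8% of all genes tested, and they passed whichever of the 9 libraries was left out. Without activin + HGF library 1, SLC30A1 had 1.51 in place of 2.12 and MT1E -0.83 in place of -0.90. The members' median was 1.62 and that of all genes -0.03, and the share of passing genes that were higher was 52.3% with TMM and 36.3% with library totals. This comparison shares its libraries with the other comparisons, so its values are no separate evidence.

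**Figure D2:**
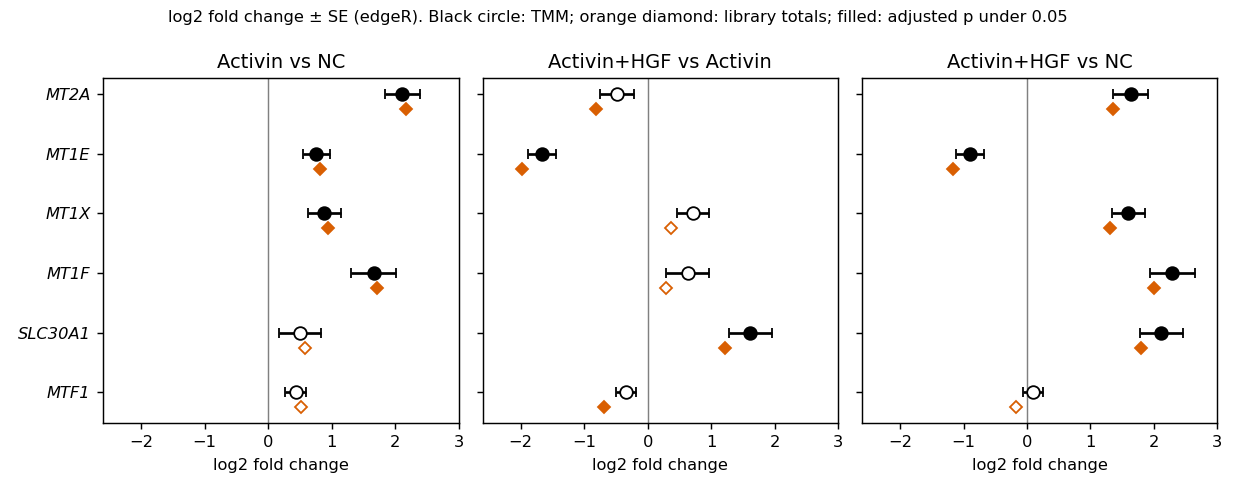
edgeR log2 fold changes (horizontal axes) of 6 genes in the 3 comparisons. Black circles with bars are the value ± SE with TMM scaling, orange diamonds are library totals, and filled symbols have an adjusted p under 0.05. MT1E is the 1 metallothionein below 0 against control after HGF (-0.90), and library totals move all genes to the left in the comparisons with HGF.

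The make-up of the metallothionein pool differed between the groups. Summed over MT2A, MT1E, MT1X, MT1F and MT1G, the level was 181 ± 30.4 FPKM in control cells, 650 ± 155 with activin and 339 ± 33.9 with activin + HGF (SD, n = 3), with no overlap between the groups. MT2A made up 64.6% to 68.1% of this sum in control libraries, 81.7% to 84.2% in activin libraries and 87.6% to 90.1% in activin + HGF libraries. Without MT2A, the sum was 61.1, 110.1 and 38.9 FPKM, so its order turned, with activin + HGF below control. In CPM the sums were 198, 662 and 450 (means), and the activin and activin + HGF libraries overlapped, from 483 to 905 and from 370 to 536. The sum was chosen with earlier results known and was not tested.

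Ratios between genes of the same library do not depend on scaling, and were chosen after the values were seen. MT2A had 2.02 to 2.31 times the FPKM of MT1E in control libraries, 5.01 to 5.96 times in activin libraries and 10.2 to 16.8 times in activin + HGF libraries. MT1E had 10.6 to 14.1 times the FPKM of MT1X in control libraries and 10.3 to 12.0 times in activin libraries, which overlap, and 1.55 to 3.01 times in activin + HGF libraries. MT2A had 21.3 to 32.6 times the FPKM of MT1X in control libraries, 51.4 to 71.3 times in activin libraries and 25.6 to 30.7 times in activin + HGF libraries. Within the cluster, MT2A was thus higher against MT1E and MT1X in activin cells, and MT1E was lower against both after HGF. The ratio of MT1X to MT1F was 4.05 to 7.84, 2.52 to 4.70 and 2.92 to 3.83, so the activin range overlapped both others, and the activin + HGF range lay just below the control range.

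**Figure D3:**
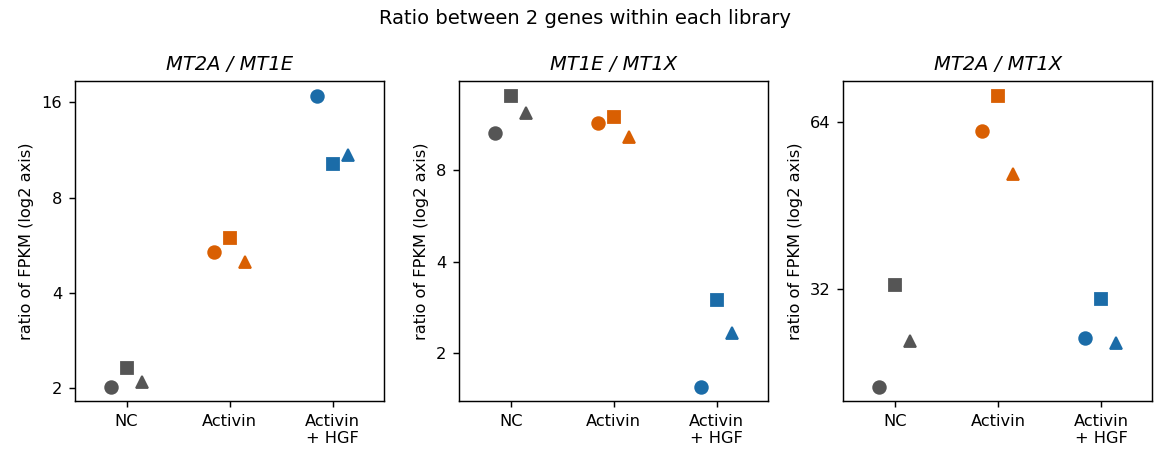
Ratio of FPKM between 2 genes within each library (vertical axes, log2 scale) by group, with symbols for replicates 1, 2 and 3. MT2A over MT1E steps up from 2.02 to 2.31 in control to 10.2 to 16.8 after HGF, while MT1E over MT1X is 10.3 to 14.1 in control and activin libraries and 1.55 to 3.01 after HGF.

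The promoters of 4 members were in the RefSeq table used here (GRCh38.p14). They are shown for the 3 that held the metal response element core, the site MTF1 is known to bind, searched as TGCACNC and as TGCGCNC on both strands in the 250 bases before the annotated start. Capitals mark the matches, and each sequence reads in the direction of its gene.
MT2A (chr16:56608334-56608583, plus strand): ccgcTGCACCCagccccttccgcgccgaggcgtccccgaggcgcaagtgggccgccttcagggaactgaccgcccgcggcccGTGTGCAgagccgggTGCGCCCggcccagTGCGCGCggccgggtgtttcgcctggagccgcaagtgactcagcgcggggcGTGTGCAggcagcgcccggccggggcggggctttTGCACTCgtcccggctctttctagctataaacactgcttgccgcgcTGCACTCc
MT1X (chr16:56682220-56682469, plus strand): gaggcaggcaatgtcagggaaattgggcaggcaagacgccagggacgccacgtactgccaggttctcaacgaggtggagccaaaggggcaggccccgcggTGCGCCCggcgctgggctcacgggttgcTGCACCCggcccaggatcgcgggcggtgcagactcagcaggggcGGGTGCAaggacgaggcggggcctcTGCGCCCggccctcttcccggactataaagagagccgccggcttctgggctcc
SLC30A1 (chr1:211579162-211579411, minus strand): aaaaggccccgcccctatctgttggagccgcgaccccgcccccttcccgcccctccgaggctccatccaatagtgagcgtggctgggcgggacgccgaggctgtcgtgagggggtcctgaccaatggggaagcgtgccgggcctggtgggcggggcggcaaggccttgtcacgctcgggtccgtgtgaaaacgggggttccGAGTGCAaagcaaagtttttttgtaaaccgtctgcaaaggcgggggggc
MT2A held 7 matches, 5 on its own strand, MT1X held 4 and SLC30A1 held 1, none of them overlapping. MTF1 itself held 0. Of 35116 promoters of the same length, 24.8% held at least 1 match, 0.37% at least 4 and 0.0313% at least 7. The matches describe these letters only, and no binding was measured. GENCODE 29 starts MT2A, MT1X and MTF1 further upstream than RefSeq, so in that annotation the whole MT2A window, with all 7 matches, and part of the MT1X and MTF1 windows lie within the gene. It starts SLC30A1 further downstream, at 211578742, and the 250 bases before that start were not searched. MT1E, MT1F, MT1G and MT1M had no entry.

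**Figure D4:**
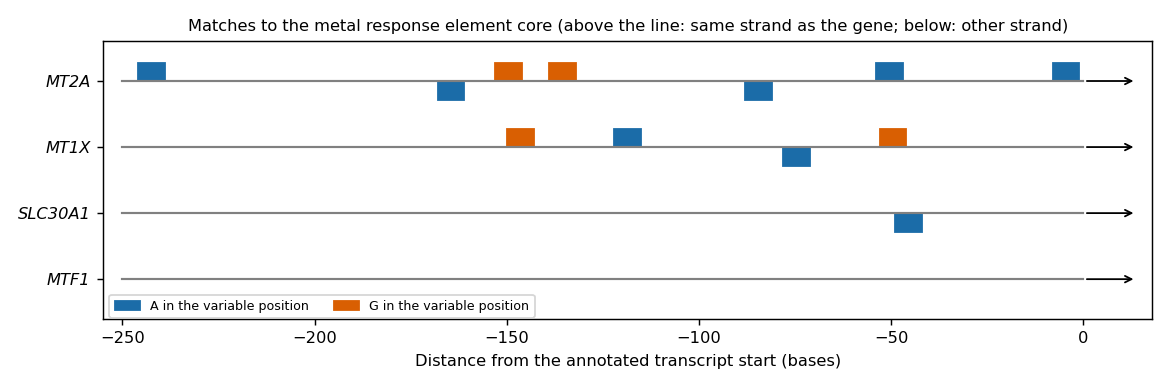
Matches to the metal response element core in the 250 bases before the annotated start of 4 genes (horizontal axis, distance in bases), drawn above the line for the strand of the gene and below for the other strand, with colours for the A and G forms of the core. MT2A has 7 matches, MT1X 4, SLC30A1 1 and MTF1 0.

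Other members of the metallothionein family, 15 named genes and pseudogenes, had 7 rows and 4 tested genes, of which 0 passed in any comparison by edgeR, and 0 had an unadjusted p under 0.05 or passed by DESeq2 or limma on FPKM. MT2P1, a pseudogene of MT2A, had 0.407 FPKM in control, 1.06 in activin and 1.13 in activin + HGF cells, with a log2 fold change of 1.70 ± 0.869 for activin + HGF against control (adjusted p = 0.163 from edgeR). MT1DP, another pseudogene, went the other way in its means, with 1.82 FPKM in control, 0.36 in activin and 0.437 in activin + HGF cells. It had 1.08, 0 and 0 FPKM in activin libraries 1, 2 and 3, and 0.60, 0 and 0.71 with activin + HGF. Its log2 fold change with activin was -2.42 ± 1.61 (adjusted p = 0.351 from edgeR). Group means were 0.0882 to 0.290 CPM for MT2P1 and 0.0724 to 0.398 CPM for MT1DP, so both rest on few counts and neither direction is secure. Among the other SLC30 exporters, 0 of 6 tested genes passed with activin by edgeR, 2 had an unadjusted p under 0.05, and DESeq2 and limma on FPKM each called 1. SLC30A5, an exporter of the early secretory pathway, was the 1 that passed as higher with HGF (0.50 ± 0.146, adjusted p = 0.0492 from edgeR), and it did not pass with library totals (0.16, adjusted p = 0.553). Against control, SLC30A5 was higher in activin + HGF cells (0.72, adjusted p = 0.0045, and 0.46, adjusted p = 0.0639, with library totals) and SLC30A6 lower (-1.89, adjusted p = 0.0074 from edgeR). Over all genes tested, 18% passed with activin, 12.9% with HGF and 31.4% against control. The counts of this and the later lists were not tested against these shares.

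The SLC39 (ZIP) importers, which bring zinc into the cytosol, had 11 tested genes. With activin 2 rose and 0 fell, SLC39A13 (0.97 ± 0.277, adjusted p = 0.0351 from edgeR) and SLC39A4 (0.92 ± 0.25, adjusted p = 0.0292), and both passed with library totals. With HGF after activin 3 rose and 1 fell. SLC39A7, which releases zinc from the endoplasmic reticulum and had the highest level of the family after HGF, went from 79.3 to 122 FPKM (1.00 ± 0.176, adjusted p = 0.00868 from edgeR). FPKM is scaled to library totals and these log2 fold changes to TMM factors, so they differ in size. With library totals SLC39A7 had 0.65 (adjusted p = 0.012 from edgeR). SLC39A4, the intestinal zinc importer, went from 7.43 to 11.5 FPKM (1.01 ± 0.25, adjusted p = 0.0285 from edgeR) and SLC39A10 from 5.40 to 8.57 FPKM (1.08 ± 0.232, adjusted p = 0.0166). Neither passed with library totals (0.66, adjusted p = 0.0573, and 0.70, adjusted p = 0.0882). SLC39A9 fell from 10.1 to 2.43 FPKM (-1.68 ± 0.288, adjusted p = 0.00787 from edgeR, and -2.03 with library totals). Against control, 5 rose and 1 fell in activin + HGF cells (3 and 1 with library totals), with SLC39A4 at 1.92 and SLC39A9 at -2.05. The median of the 11 was 0.01, 0.35 and 0.68 in the 3 comparisons, in which 18%, 12.9% and 31.4% of all genes tested passed.

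Copper and iron genes were listed as other genes of metal handling. Of 12 tested copper genes 0 rose and 2 fell with activin, among them SOD1, the copper-zinc superoxide dismutase, from 158 to 47.0 FPKM (-1.82 ± 0.162, adjusted p = 0.000103 from edgeR). With HGF 2 rose and 1 fell, and against control 2 rose and 3 fell. Of 9 tested iron genes 3 rose and 1 fell with activin. The ferritin chains, which store iron, had the largest values, with FTH1 from 695 to 2686 FPKM (adjusted p = 0.000413 from edgeR) and FTL from 1101 to 3738 FPKM (1.71 ± 0.25, adjusted p = 0.0014). With HGF 3 iron genes rose and 0 fell, FTL among them (1.19 ± 0.247, adjusted p = 0.0151 from edgeR), and with library totals 1 passed as higher. Against control 4 rose and 1 fell. The medians were -0.06, 0.20 and -0.00 for the copper genes and -0.24, 0.65 and 0.15 for the iron genes. Among all genes tested, 18% passed with activin, 12.9% with HGF and 31.4% against control.

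Of 7 tested glucocorticoid-responsive genes, 4 rose and 0 fell with activin, namely TSC22D3 (2.73 ± 0.475, adjusted p = 0.00357 from edgeR), DUSP1 (2.48 ± 0.525, adjusted p = 0.00949), KLF9 (2.04 ± 0.216, adjusted p = 0.000244) and PER1 (1.77 ± 0.289, adjusted p = 0.00249). FKBP5, another gene known to respond to glucocorticoids, had -0.87 ± 0.296 (adjusted p = 0.0686 from edgeR), and NR3C1, the glucocorticoid receptor, 0.01 ± 0.338. With HGF 4 rose and 0 fell, but with library totals DUSP1 alone of these passed. DUSP1 had 123.37, 33.92 and 36.37 FPKM in activin + HGF libraries 1, 2 and 3, and it was not refitted without library 1. Against control 5 rose and 1 fell. The gene that fell was FKBP5, from a mean of 11.2 FPKM in control to 3.33 in activin + HGF cells. The list median was 1.77, 0.98 and 2.81, in comparisons in which 18%, 12.9% and 31.4% of all genes tested passed. Most of these genes also respond to other stimuli, and the share of the metallothionein change that goes with them was not tested.

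In the annotation deposited with the table, 43 genes carried the KEGG term Mineral absorption, 6 of them members. Of 29 tested others, 9 rose and 1 fell with activin and 4 rose and 3 fell with HGF. Against control 12 rose and 4 fell after both. The shares of all genes tested that passed were 18%, 12.9% and 31.4% in these comparisons. HMOX1, which degrades heme and frees iron, went from 11.1 to 67.3 FPKM with activin (2.54 ± 0.263, adjusted p = 0.000218 from edgeR). The Gene Ontology terms for the cellular response to zinc, cadmium or copper covered 52 genes, 6 of them members. Of 39 tested others, 8 rose and 4 fell with activin and 5 rose and 1 fell with HGF. After both steps 12 rose and 6 fell. JUN (3.02 with activin, 1.72 with HGF) and FOS (2.25 with HGF) were among them. Activin + HGF libraries 1, 2 and 3 had 158.82, 84.99 and 79.60 FPKM of JUN and 28.59, 19.49 and 11.88 of FOS. Neither gene was refitted without library 1. With library totals the HGF counts were 1 higher and 5 lower for the KEGG term and 4 higher and 5 lower for the Gene Ontology terms, and after both steps they were 10 higher and 4 lower and 10 higher and 10 lower. The lists overlap in genes such as FTH1, FTL, HMOX1 and SLC39A4.

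**Figure D5:**
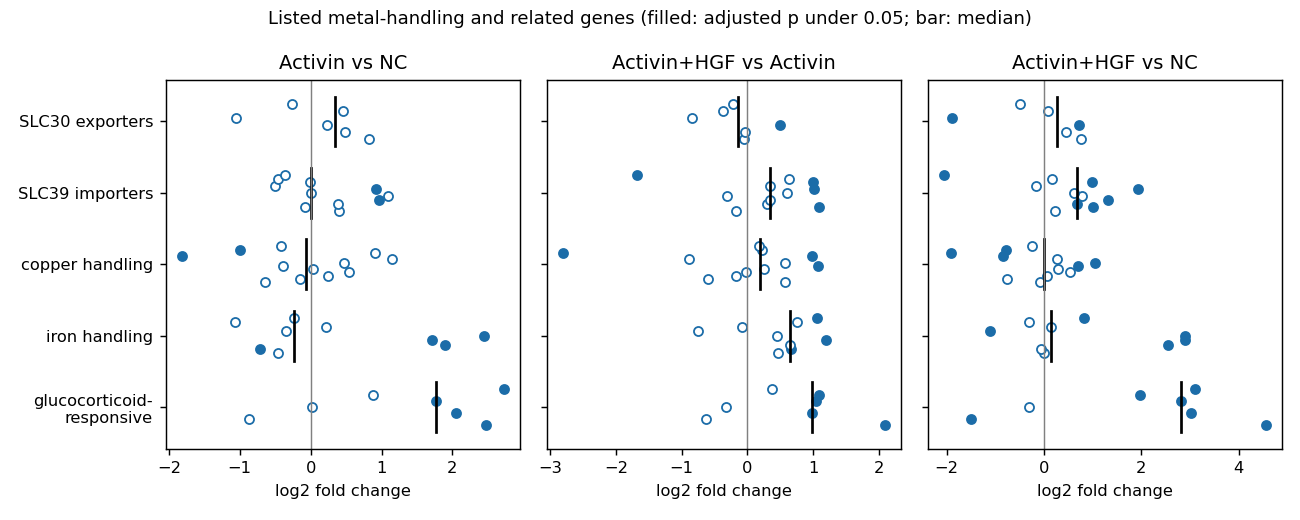
edgeR log2 fold changes (horizontal axes, TMM scaling) of genes in 5 lists without the members, by comparison. Each circle is 1 gene, filled where the adjusted p was under 0.05, and black bars are list medians. All 5 lists spread to both sides of 0 in each comparison, and the glucocorticoid-responsive genes have medians of 1.77, 0.98 and 2.81.

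The genes whose profile over the 9 libraries was most like that of the metallothioneins (mean of the 4 tested, log2 CPM centred on the gene's own mean) were PLAU, VPS37C, TMC6, FLNA and WDR45 among 12076 genes. The root mean square difference per library was 0.134 for PLAU to 0.161 for WDR45 on the log2 scale, where the metallothionein profile itself varied by 0.599. PLAU, the urokinase-type plasminogen activator, had 44.7, 109.8 and 95.1 CPM in control, activin and activin + HGF cells. The reference is a mean of genes that moved apart. MT1E departed from it, with 65.4, 110.6 and 35.1 CPM in the same groups. For SLC30A1, whose profile varied by 0.908, the nearest were AC105250, MEX3B, AVPI1, DNAJB4 and HECA, at 0.185 to 0.221. AVPI1 had 20.7, 34.1 and 94.2 CPM and MEX3B 5.37, 5.98 and 19.2 CPM. On the FPKM scale 4 of the 5 genes nearest to the metallothioneins and all 5 nearest to SLC30A1 were the same.

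Libraries held 57453977 to 77016167 counts on genes in control, 63224256 to 64728266 in activin and 69559061 to 74314387 in activin + HGF cells, so every activin + HGF library was deeper than every activin library and the control libraries spanned both. The colorectal label was checked against 8 epithelial markers, of which 5 had at least 1 FPKM in every library (EPCAM among them) and VIL1, CDH17 and CEACAM5 were below 1 in all, with a summed level of 661 to 716, 551 to 754 and 643 to 870 FPKM in the 3 groups. Markers of other cell types were low. Endothelial markers summed to at most 0.38 FPKM in any library. Fibroblast markers summed to 2.62 to 2.69 FPKM in control, 4.58 to 6.04 in activin and 2.88 to 3.65 in activin + HGF cells. Most of this was COL1A1, which was highest with activin, as MT2A and MT1E were, while COL1A2, COL3A1, DCN and PDGFRB were below 1 in all libraries. COL3A1 went the other way, with 0.13 to 0.35 FPKM in control, 0 in activin and 0.02 to 0.05 in activin + HGF cells. PDGFRB had 0 to 0.06, 0.23 to 0.34 and 0.06 to 0.14 FPKM in these groups. With activin, 1 of 3 tested fibroblast markers passed as higher and 1 as lower by edgeR, where 18% of all genes tested passed. Of the leukocyte markers, CD68 had 0.51 to 1.26 FPKM in control, 3.98 to 8.38 in activin and 5.73 to 7.41 in activin + HGF cells, and PTPRC, CD3E, CD14 and LYZ were below 1 in all libraries. LYZ had 0.05 to 0.14 FPKM in control, 0.48 to 0.88 in activin and 0.18 to 0.54 in activin + HGF cells. CD68 and LYZ were higher in both treated groups, as MT2A, MT1X and MT1F were. The part of these markers and of COL1A1 in the members' values was not tested. Hepatocyte markers summed to 0.76 to 0.95, 2.33 to 3.36 and 2.87 to 3.94 FPKM, with ALB, APOA1, TTR, HP and CYP3A4 below 1. Most of this was SERPINA1, with 0.67 to 0.84, 2.27 to 3.09 and 2.19 to 3.11 FPKM. SERPINA1 was higher in both treated groups, as MT2A, MT1X and MT1F were, and its part in the members' values was not tested. In bulk RNA, fewer cells with a high level and less RNA per cell cannot be told apart.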

How the data were processed

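RNA was extracted from HCT116 cells, depleted of ribosomal RNA and sequenced as paired ends, and strand specificity is not given in the sources used here. The authors deposited 1 table with raw read counts per gene, not normalized, and FPKM values, which the authors had scaled to library total and gene length. The submitters' processing notes name cutadapt 1.9, HISAT2 2.0.4 and StringTie 1.3.4d. Of counts from 1 to 40, 35.0% were multiples of 4 (25% if even), so a count need not be 1 fragment. Counts per FPKM, relative to their median over genes in each library, were constant for each of the 6 members within 0.997 to 1.01.

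Members and gene lists were chosen with earlier results of these data known. All 9 libraries were fitted with edgeR 4.0.16 in R 4.3.3 (filterByExpr, TMM, glmQLFit, glmQLFTest, 1 mean per group), and p-values were adjusted over 20988 genes by the Benjamini-Hochberg method, with 0.05 as threshold. The summed level of the leukocyte markers is not reported here. SE is the log2 fold change over the root of its F statistic, so it is approximate. Named genes were the members and, of each list, up to 4 passing genes with the largest change and a mean of at least 1 FPKM in the higher group, and up to 2 not passing with the highest level (up to 3 from KEGG and Gene Ontology), plus the 5 nearest profiles. The ratios between members, and DUSP1 and JUN beside SLC30A1, were chosen after seeing their values. The alternatives were RLE, upper-quartile or no scaling factors, other filters, DESeq2 1.42.0, limma 3.58.1 on log2(FPKM + 0.1) or log2(FPKM + 1), a replicate block, the 2 groups alone, other thresholds, counts divided by 4 and left-out libraries. For the lists, library totals and the other tools were added after the data were seen. The main edgeR fit, limma and DESeq2 were checked on simulated data with changes in the activin group alone and no outlying library. The replicate block, the fits of 2 groups alone and the other scaling factors were not checked in this way. For 3 against 3 libraries, a two-sided exact permutation test reaches no lower p than 0.1. Floors cover counting error only, SD and SE include the spread between libraries, and 3 libraries per group limit the precision. Sequences came from RefSeq and GENCODE 29, and figures were drawn with matplotlib 3.10.9.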

Additional observations from a re-analysis of the deposited data

How the results depend on the processing

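Over 414 alternative results for the 6 genes in the 3 comparisons, the direction and side of the threshold held in 378, 23 lost the call, 9 gained it and 4 changed sign. Those at a stricter threshold used the main fit again, so they could lose a call but not change direction. The 4 were MTF1 in activin + HGF against control, which did not pass in any of them, at -0.17 with library totals, -0.20 with limma on log2(FPKM + 0.1), with or without a filter, and -0.17 on log2(FPKM + 1). MT2A and MT1F with activin, MT1E with HGF, and MT1F, MT2A, MT1X and SLC30A1 against control after both steps passed under all alternatives run.

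With activin, 4 members and 3776 genes passed, against 2 and 2394 with at least a 2-fold change, 2 and 1688 at an adjusted p under 0.01, and 2 to 5 and 2021 to 4729 with a library left out. With HGF, 2 members and 2698 genes passed. DESeq2 called 4470 genes, the 2 groups alone 714 and 1 member, a 2-fold change 1697, an adjusted p under 0.01 488 and 1 member, and leaving out a library 686 to 4533 and 1 to 2 members. Library totals and limma on FPKM with either pseudocount gave 4 members, and limma without a filter 1. Against control, 5 members and 6587 genes passed, 3492 genes at an adjusted p under 0.01, and 4260 to 7798 genes and 5 members with a library left out. Why these counts moved was not tested, beyond the stricter thresholds and fewer libraries themselves.

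The log2 ratio of the summed metallothionein level was 1.84 with activin, -0.94 with HGF and 0.91 after both. Without MT2A it was 0.85, -1.50 and -0.65, the last with its sign turned, MT1E being the largest gene left in the sum, and in CPM it was -0.56 with HGF and 1.18 after both. Of the 5 nearest profiles, 4 and 5 were shared on the FPKM scale.

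In the fit with a replicate block, 3362, 2044 and 6088 genes and 3, 2 and 5 members passed, and MT1X with activin was the 1 member call that changed. Deviations of same-numbered libraries had correlations of -0.103 to 0.195 over 9 pairs, 1 of them over 0.1. The labels do not say whether equal numbers mark pairs. Deviations from means of 3 libraries cannot settle it.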
